A study of Homo sapiens with 6 samples.

Results

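The 9 genes described here encode receptors by which leukocytes home to and hold on to tissue: CXCR4, SELPLG, the integrin subunits ITGA4, ITGA5, ITGA6, ITGAL, ITGB1 and ITGB2, and the integrin-associated protein CD47. They were found by their symbols among 35410 listed genes, and all 9 were among the 15465 genes with enough counts to be tested. Polyadenylated RNA was measured by MACE-Seq, which counts reads at the 3′ ends of transcripts, in SEM cells, an established leukemia line of proB origin that carries the KMT2A::AFF1 fusion. SEM::mock was transfected with an empty vector and SEM::EGR3 with a vector for the inducible expression of EGR3, a zinc finger transcription factor, and both lines received doxycycline at 1 µg/mL for 48 h before RNA extraction. Each group consisted of 3 biological replicates of 1 transfected line. Thus, the transgene and any other difference between these lines cannot be told apart, and p-values measure the spread between replicates of a line.

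Circulating leukocytes first roll on vessel walls, for which P-selectin glycoprotein ligand 1, the product of SELPLG, binds selectins. Chemokines then signal through receptors such as CXCR4, the receptor for CXCL12 that holds hematopoietic precursors in the bone marrow, and this signal activates integrins. Integrins are pairs of an alpha and a beta subunit: ITGA4, ITGA5 and ITGA6 pair with ITGB1 to bind VCAM1 and fibronectin, fibronectin, and laminins, respectively, whereas ITGAL pairs with ITGB2 to form LFA-1, which binds ICAM1. CD47 associates with integrins, binds thrombospondin 1 and signals to phagocytes through SIRPA.

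The listed genes held between 5286115 and 6181388 counts per SEM::mock library and between 7293092 and 15106018 per SEM::EGR3 library. EGR3 was counted 8, 10 and 6 times in SEM::mock and 9768, 4952 and 5557 times in SEM::EGR3, a log2 fold change of 8.78 (SE 0.109) with an adjusted p of 1.27e-26 in edgeR's quasi-likelihood test. The libraries labelled SEM::mock stood apart from their label in the markers of the line. Of 15 B lineage genes, EBF1 had 0 counts in all 3 of these libraries against 2058, 925 and 1145 in SEM::EGR3, whereas BLNK, DNTT and RAG2, also at 0 in SEM::mock, had at most 2 counts in a SEM::EGR3 library. The summed level of the list was 267 to 288 counts per 1000000 counts (CPM) against 721 to 756 CPM in SEM::EGR3. In SEM::mock, nearly all of it was CD24 and TCF3, and without these 2 genes, left out after their values were seen, the other 13 summed to 2.64 to 6.06 CPM against 527 to 555 CPM. PAX5 was counted 1, 1 and 2 times against 3410, 1443 and 1760. All 10 KMT2A fusion target genes were higher in SEM::EGR3, with HOXA7 at 0 counts in SEM::mock and a summed level of 187 to 205 CPM against 1364 to 1472 CPM. Of the 11 B lineage genes tested, 10 were higher and 1, CD24, was lower in SEM::EGR3. Erythroid and megakaryocyte genes were abundant in all 6 libraries, with a summed level of 4977 to 5277 CPM in SEM::mock and 6182 to 6430 CPM in SEM::EGR3. Of the 14 tested, 5 were higher and 9 lower. In these genes the SEM::EGR3 libraries also stood apart from their label as a proB line. HBZ had a mean of 862 CPM in SEM::mock and 2107 CPM in SEM::EGR3, and GATA1 335 and 285 CPM. Myeloid genes summed to 285 to 292 against 107 to 111 CPM, with 1 higher, 2 lower and 1 not called. MPO and CSF1R were at 0 in SEM::mock, and CSF1R had 15, 4 and 8 counts in SEM::EGR3. T cell genes summed to 60.2 to 66.3 against 85.6 to 91.3 CPM, with 3 higher and 2 lower. Among them, CD3D fell from 58.0 to 6.23 CPM and TRAC rose from 1.20 to 74.4 CPM. Epithelial and fibroblast genes summed to 749 to 780 against 539 to 566 CPM, with 3 higher and 3 lower. As all 6 libraries were concerned, no value below could be given without them. The part of these differences in the results below was not tested.

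Of the 9 genes, 5 were higher in SEM::EGR3 (CXCR4, ITGA4, ITGA6, ITGAL and ITGB2), 3 were lower (SELPLG, ITGA5 and CD47), and ITGB1 did not pass the test at an adjusted p under 0.05. The background was broad: 36.5% of all tested genes were called higher and 32% lower, which is 68.5% called in all. The groups did not overlap for 8 of the 9 genes and for 70.2% of all tested genes (37.4% higher and 32.8% lower). When a log2 fold change of 1 or more in size was also required, 16.7% of tested genes were higher and 8.5% lower, and among the 9 genes the same 5 were higher and SELPLG was lower. The median log2 fold change was 1.83 over the 9 genes and 0.03 over all tested genes. Whether more RNA per cell or more cells with the transcript gave a higher level cannot be told apart in bulk samples. The summed level of the 9 genes was 265 to 276 CPM in SEM::mock and 414 to 428 CPM in SEM::EGR3. ITGB2 made up this difference, and without it the other 8 genes summed to 264 to 274 CPM and 253 to 259 CPM.

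**Figure D1:**
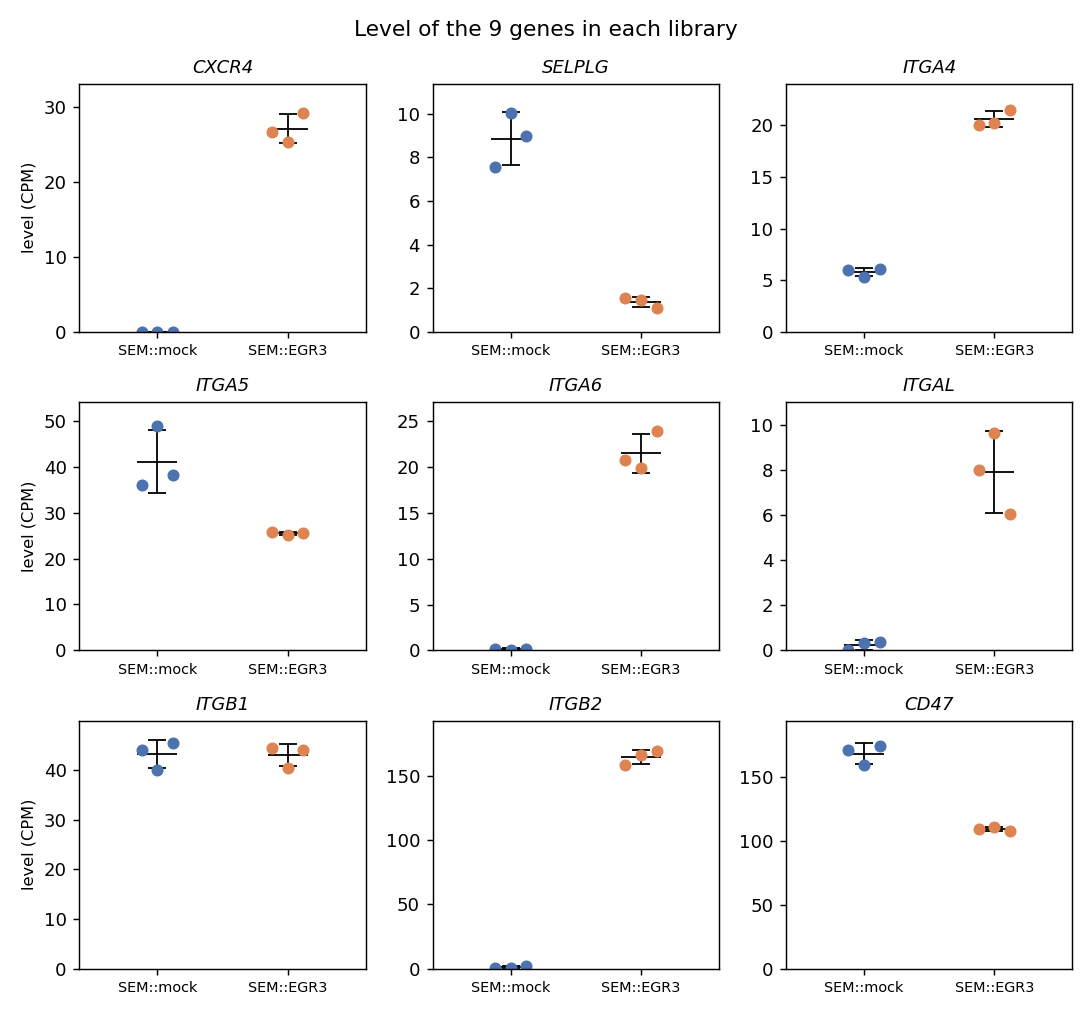
Level of each of the 9 genes in each of the 6 libraries, in CPM, with 1 point per library for SEM::mock and SEM::EGR3. ITGB2 lies between 158 and 169 CPM in SEM::EGR3 and at 2.35 CPM or below in SEM::mock, CXCR4 has no count in SEM::mock, and the points of ITGB1 overlap.

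The chemokine receptor gene CXCR4 (2:136114349-136118165, minus strand, GRCh38) had no count in any of the 3 SEM::mock libraries. In SEM::EGR3, it had 415, 189 and 265 counts, or 26.6, 25.3 and 29.2 CPM (mean 27.0 ± 1.94, SD, n = 3). All SEM::EGR3 libraries thus held CXCR4 reads and no control did. At the mean level of SEM::EGR3, between 138 and 162 counts would have been present in a SEM::mock library. With 3 counts per SEM::mock library taken as the detection limit, a mean of 0.538 CPM, CXCR4 was at least 50.2-fold higher with EGR3. The adjusted p was 2.93e-16 in edgeR's quasi-likelihood test. The limit covers counting error only. ACKR3, the second receptor for CXCL12, had 1 count in 1 SEM::EGR3 library and none in the other 5 libraries, and CXCL12 itself had no count in any library.

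RefSeq start site windows (GRCh38.p14, 250 bases before to 50 after each start) were held for 6 of the 9 genes, with 10 windows in all, and none were held for SELPLG, ITGAL and ITGB2. Upstream stretches are shown for a gene without a control count that rose (CXCR4), for an alpha subunit gene that was near the detection limit in SEM::mock (ITGA6), and for the gene whose level did not pass the test (ITGB1). They are printed 5′ to 3′ on the strand of the gene, with GC boxes (GGGCGG on either strand) and the NRF1 word (GCGCA followed by TGCGC) in capitals.
CXCR4, chr2:136118166-136118399, minus strand: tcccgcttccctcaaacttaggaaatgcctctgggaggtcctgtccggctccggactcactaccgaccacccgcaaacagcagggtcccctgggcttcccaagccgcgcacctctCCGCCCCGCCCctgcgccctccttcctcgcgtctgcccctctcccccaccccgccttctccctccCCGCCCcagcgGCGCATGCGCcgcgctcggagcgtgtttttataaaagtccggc
ITGA6, chr2:172427086-172427335, plus strand: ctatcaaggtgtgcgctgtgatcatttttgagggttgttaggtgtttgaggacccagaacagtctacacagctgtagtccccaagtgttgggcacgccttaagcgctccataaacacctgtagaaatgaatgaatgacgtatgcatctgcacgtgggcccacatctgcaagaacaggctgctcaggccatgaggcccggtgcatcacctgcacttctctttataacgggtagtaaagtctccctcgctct
ITGB1, chr10:32958233-32958480, minus strand: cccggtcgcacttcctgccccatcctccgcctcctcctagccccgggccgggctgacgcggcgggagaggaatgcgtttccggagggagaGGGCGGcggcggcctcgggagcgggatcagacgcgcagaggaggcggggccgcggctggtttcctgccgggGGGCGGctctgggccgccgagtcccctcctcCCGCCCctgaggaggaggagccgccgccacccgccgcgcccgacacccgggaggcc
The CXCR4 stretch held 3 GC boxes, a pair of which overlap, and the palindromic NRF1 word. The ITGB1 stretch likewise held 3 GC boxes, and the ITGA6 stretch held none. Past the printed ITGA6 stretch, the same window held 1 GC box. The window of the other ITGA6 start, at 172427586, held 3, that box among them. The EGR word GCGNGGGCG, searched on both strands and able to overlap a GC box, was found in 1 of the 10 windows, against 9.43% of all 35116 windows in the table. That window belongs to a downstream start of CXCR4 at position 136116235, inside the gene, and the word is capitalised in its surroundings of 30 bases.
CXCR4 downstream start, chr2:136116392-136116421, minus strand: gtctttgcaaCGCCCCCGCcctccccccgt
GC boxes were present in 7 of the 10 windows (45.0% of all windows) and the NRF1 word in 1 (1.24% of all). The RUNX word TGTGGT was present in both ITGA6 windows, which overlap (13.1% of all), and the PU.1 word GAGGAAGT (2.59% of all) and the EBF word, TCCC and GGGA with 2 free bases between (1.21% of all), were present in none. A match is a description of the letters and does not show binding.

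SELPLG (12:108622277-108633959, minus strand), which encodes the selectin ligand, went in the other direction. It was counted 43, 60 and 46 times in SEM::mock, or 7.57, 10.0 and 8.99 CPM (mean 8.86 ± 1.23, SD, n = 3), and 24, 11 and 10 times in SEM::EGR3, or 1.54, 1.47 and 1.10 CPM (mean 1.37 ± 0.238). All 3 SEM::mock libraries were above all SEM::EGR3 libraries. The log2 fold change was -2.65 (SE 0.227, adjusted p = 1.85e-10, edgeR's quasi-likelihood test), the lowest of the 9. The protein binds selectins only once it carries sialylated, fucosylated O-glycans and tyrosine sulfate. Of 16 genes for these glycosylation and sulfation steps, 7 rose, 7 fell and 2 did not pass the test (median log2 fold change -0.18). FUT7, the leukocyte fucosyltransferase, had no count in SEM::mock but was counted 74, 35 and 52 times in SEM::EGR3, which is at least 9.39-fold higher. GCNT1, which starts the core 2 branch, was counted 1, 3 and 0 times against 212, 90 and 132, a ratio of 56.7 (95% counting interval 21.98 to 209). C1GALT1, which makes the core 1 O-glycan, fell from 33.99 ± 1.90 to 14.0 ± 0.956 CPM (SD, n = 3 per group; log2 fold change -1.27). The tyrosine sulfotransferase genes moved in opposite directions, TPST1 from 1.53 ± 0.741 to 5.98 ± 0.868 CPM (1.94 on the log2 scale) and TPST2 from 90.2 ± 5.23 to 42.3 ± 2.13 CPM (-1.08).

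Among the alpha subunits that pair with ITGB1, 2 rose and 1 fell. ITGA4 (2:181457202-181536187, plus strand), the alpha chain of VLA-4, was counted 34, 32 and 31 times in SEM::mock, or 5.99, 5.34 and 6.06 CPM, and 312, 151 and 195 times in SEM::EGR3, or 20.02, 20.2 and 21.45 CPM. The means were 5.80 ± 0.395 and 20.6 ± 0.767 CPM (SD, n = 3), with a log2 fold change of 1.83 (SE 0.138, adjusted p = 1.71e-11, edgeR's quasi-likelihood test). The spread within each group was small beside the gap between them. ITGA6 (2:172427354-172506282, plus strand), the laminin receptor chain, was near the detection limit in SEM::mock with 1, 0 and 1 counts and reached 323, 148 and 217 counts in SEM::EGR3, or 20.7, 19.8 and 23.9 CPM (mean 21.5 ± 2.12). With counts and scaled library totals pooled within each group, the ratio was 179.7 (95% counting interval 49.6 to 1487). The adjusted p was 7.40e-16 in edgeR's quasi-likelihood test. No control library held more than 1 ITGA6 read. The antisense gene AC078883.1, which spans the 3′ end of ITGA6, had 6, 4 and 1 reads in SEM::mock and 14, 6 and 2 in SEM::EGR3.

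ITGA5 (12:54395261-54419460, minus strand), the alpha chain of the fibronectin receptor, was counted 205, 293 and 196 times in SEM::mock, or 36.1, 48.9 and 38.3 CPM, and 402, 188 and 232 times in SEM::EGR3, or 25.8, 25.2 and 25.5 CPM. The SEM::mock libraries were all higher and were more spread, with means of 41.1 ± 6.84 and 25.5 ± 0.298 CPM (SD, n = 3). The log2 fold change was -0.69 (SE 0.0982, adjusted p = 1.06e-06, edgeR's quasi-likelihood test). A pair of antisense genes, AC079313.2 and AC079313.1, span the 3′ end of ITGA5 and had at most 1 count in a SEM::mock library, against 30 to 53 and 21 to 44 in SEM::EGR3. The strand setting of the counting was not given in the sources used here. How reads were assigned where these genes overlap ITGA5 is thus not known.

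The common beta subunit gene ITGB1 (10:32900319-33005792, minus strand) was counted 250, 240 and 232 times in SEM::mock, or 44.0, 40.1 and 45.3 CPM, and 692, 301 and 400 times in SEM::EGR3, or 44.4, 40.4 and 44.0 CPM. These ranges overlap almost entirely, with means of 43.1 ± 2.75 and 42.9 ± 2.23 CPM (SD, n = 3). The log2 fold change was 0.01 (95% confidence interval -0.16 to 0.17, adjusted p = 0.959, edgeR's quasi-likelihood test), and its sign turned under other settings.

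In SEM::EGR3, ITGB2 had the highest level of the 9 genes. ITGB2 (21:44885953-44931989, minus strand), the beta chain of the leukocyte integrins, was counted 3, 4 and 12 times in SEM::mock, or 0.528, 0.668 and 2.35 CPM (mean 1.18 ± 1.01, SD, n = 3), and 2465, 1235 and 1537 times in SEM::EGR3, or 158, 166 and 169 CPM (mean 164 ± 5.54). The third SEM::mock library was the highest of the controls and was still far below every SEM::EGR3 library. The log2 fold change was 7.16 (SE 0.155, adjusted p = 2.94e-22, edgeR's quasi-likelihood test), and 8.05 without the third SEM::mock library. The antisense gene ITGB2-AS1 was counted 16, 23 and 22 times in SEM::mock, more than ITGB2 in the same libraries, and was counted 139, 64 and 80 times in SEM::EGR3.

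ITGAL (16:30472658-30523185, plus strand), the alpha chain of LFA-1, was counted 0, 2 and 2 times in SEM::mock. In SEM::EGR3, it had 125, 72 and 55 counts, or 8.02, 9.65 and 6.05 CPM (mean 7.91 ± 1.80, SD, n = 3), with no overlap between the groups. With counts and scaled library totals pooled within each group, the ratio was 32.9 (95% counting interval 12.7 to 121.7). The adjusted p was 1.92e-10 in edgeR's quasi-likelihood test. In SEM::mock, ITGAL was below the detection limit in every library, and ITGB2 was above it in 2 of the 3.

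CD47 (3:108043094-108091862, minus strand) was counted 973, 955 and 893 times in SEM::mock, or 171, 159 and 175 CPM, and 1699, 827 and 984 times in SEM::EGR3, or 109, 111 and 108 CPM. The groups were tight and did not overlap, with means of 168 ± 7.98 and 109 ± 1.35 CPM (SD, n = 3). The log2 fold change was -0.62 (SE 0.0567, adjusted p = 6.00e-10, edgeR's quasi-likelihood test). Its binding partners moved in both directions: SIRPA, the receptor on phagocytes, rose from 3.998 ± 0.140 to 18.4 ± 0.933 CPM (SD, n = 3 per group; log2 fold change 2.19), and THBS1, which encodes thrombospondin 1, fell from 28.0 ± 2.90 to 8.73 ± 1.11 CPM (-1.72).

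**Figure D2:**
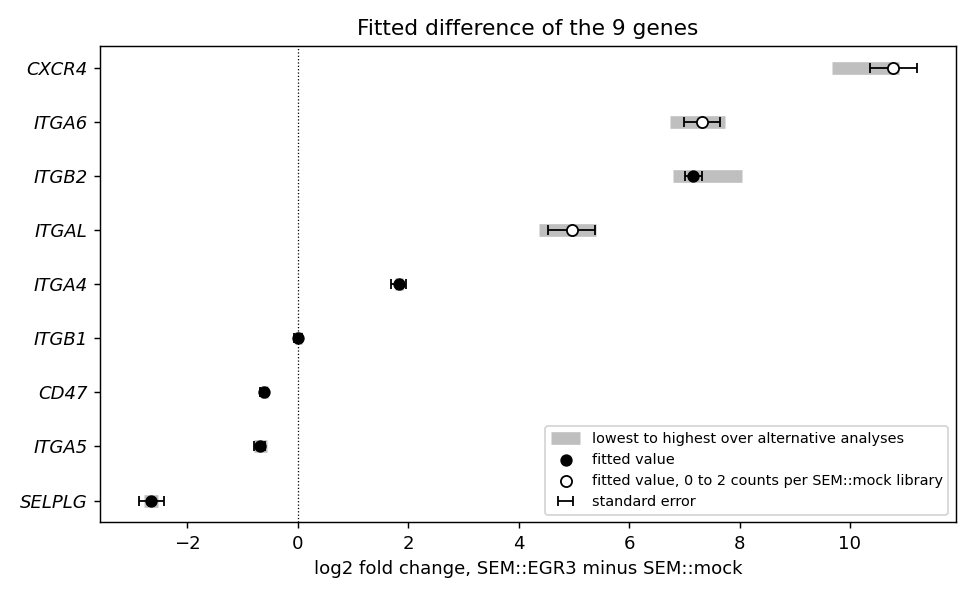
Fitted log2 fold change of each of the 9 genes, SEM::EGR3 against SEM::mock. Genes at or near 0 counts in SEM::mock (CXCR4, ITGA6 and ITGAL) have fitted values that depend on the prior count. The 95% confidence interval of ITGB1 in the edgeR fit, from -0.16 to 0.17, spans 0.

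Ordered by CPM, which in 3′ end counting carries no length term, CD47 was highest in SEM::mock. ITGB1 and ITGA5 followed with overlapping ranges, then SELPLG, ITGA4 and ITGB2, and ITGAL, ITGA6 and CXCR4 stood last with overlapping ranges at or near 0. In SEM::EGR3, ITGB2 was first and CD47 second, followed by ITGB1. CXCR4 and ITGA5 came next with overlapping ranges, although CXCR4 was above ITGA5 within each of the 3 libraries. ITGA6 and ITGA4 also overlapped, and ITGAL and SELPLG were last. SELPLG thus moved from the fourth place in SEM::mock to the last place in SEM::EGR3.

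Ratios of subunits within a library do not depend on the scaling of libraries. The count ratio of ITGA4 to ITGB1 was 0.133 to 0.136 in SEM::mock and 0.451 to 0.502 in SEM::EGR3, a difference of 1.82 in the mean log2 ratio. That of ITGA6 to ITGB1 was 0 to 0.00431 and 0.467 to 0.543, whereas that of ITGA5 to ITGB1 was 0.82 to 1.22 and 0.58 to 0.625 (log2 difference -0.67). ITGA5 was thus the most counted of these 3 partners of ITGB1 in both groups. In SEM::EGR3 the 3 were within 0.451 to 0.625 counts per ITGB1 count. The ratio of ITGB2 to ITGB1 went from 0.012 to 0.0517 in SEM::mock to between 3.56 and 4.10 in SEM::EGR3, a log2 difference of 7.31. The mean log2 ratio of ITGAL to ITGB2 was -1.99 ± 1.02 in SEM::mock, where both rest on few counts, and -4.39 ± 0.360 in SEM::EGR3 (SD, n = 3). Each of the 5 differences had an exact permutation p of 0.1 (two-sided, adjusted over the 5 ratios 0.1), the smallest that 20 assignments of 3 against 3 libraries can give.

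**Figure D3:**
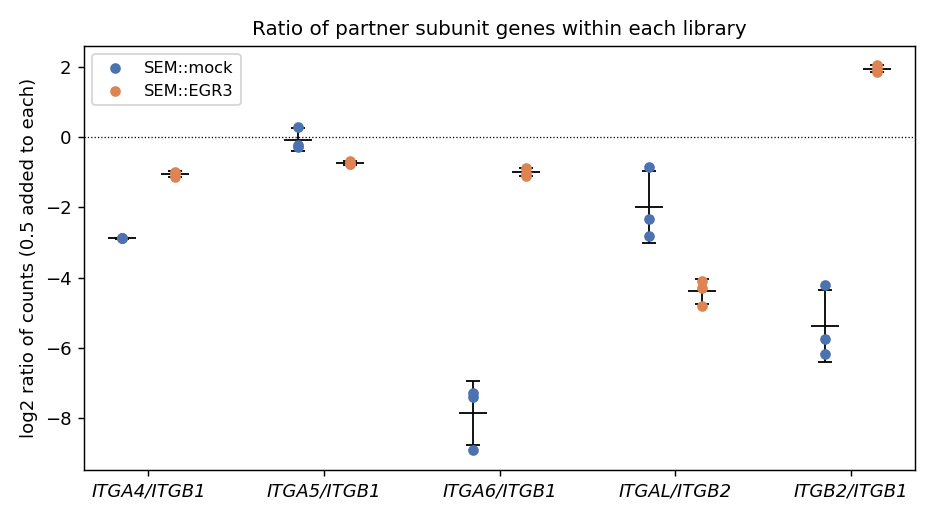
Log2 ratio of the counts of 2 subunits within each library (0.5 added to each count), with 1 point per library. The ratio of ITGB2 to ITGB1 has a mean of -5.37 in SEM::mock and 1.94 in SEM::EGR3, and that of ITGA5 to ITGB1 is the closest pair of groups, at -0.08 and -0.75.

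The remaining integrin subunits were read beside these. Of 20, 19 were listed and 12 were tested, of which 9 rose and 3 fell (median log2 fold change 0.84). ITGA7, a laminin receptor chain that pairs with ITGB1, rose from 7.27 ± 1.61 to 40.7 ± 1.26 CPM (SD, n = 3 per group; log2 fold change 2.50), and was thus at a higher CPM than ITGA6 in SEM::EGR3. ITGA2, a collagen receptor chain, was counted 2, 0 and 0 times in SEM::mock against 96, 41 and 60, a ratio of 51.5 (95% counting interval 14.1 to 428). The partners of ITGB2 in myeloid cells also rose, ITGAM from 4.08 ± 0.537 to 13.1 ± 1.26 CPM (1.67 on the log2 scale) and ITGAX from 1.12 ± 0.295 to 2.51 ± 0.401 CPM (1.18). ITGB7, the other beta chain of ITGA4, rose from 6.67 ± 0.290 to 13.2 ± 2.16 CPM (0.94). The 3 genes that fell did so by less: ITGAV, the vitronectin receptor chain, fell by 0.46, ITGAE by 0.24 and ITGB5 by 0.22 on the log2 scale.

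**Figure D4:**
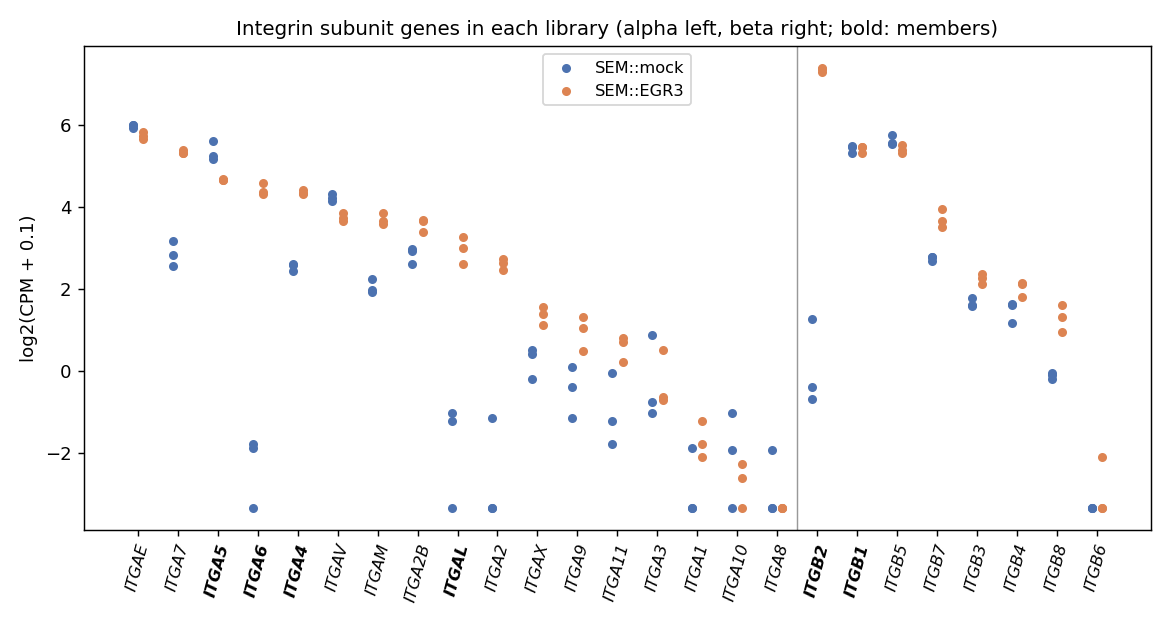
Level of the integrin subunit genes in each library, in CPM on a logarithmic axis, with 1 point per library for SEM::mock and SEM::EGR3. ITGB2 goes from a mean of 1.18 to 164 CPM and ITGA6 from 0.124 to 21.5 CPM, and the points of ITGB1 overlap, with means of 43.1 and 42.9 CPM.

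Proteins that link integrins to actin and switch them to the binding state were read from a list of 30 genes, of which 29 were tested, 11 rose, 14 fell and 4 did not pass (median log2 fold change -0.27). FERMT3, the hematopoietic kindlin that activates beta integrins, rose from 64.2 ± 4.23 to 116 ± 2.87 CPM (SD, n = 3 per group; log2 fold change 0.85). FERMT1, a kindlin of epithelia, had 0 counts in SEM::mock but was counted 121, 44 and 64 times in SEM::EGR3, which is at least 12.8-fold higher. Among the talins, TLN2 rose from 1.73 ± 0.0525 to 8.80 ± 0.0941 CPM (2.34), and the far more abundant TLN1 had 151 ± 3.99 and 142 ± 2.62 CPM and did not pass the test (adjusted p = 0.151). PARVG, the hematopoietic parvin, was counted 2, 0 and 1 times against 156, 72 and 87, a ratio of 54.9 (95% counting interval 18.6 to 267). Focal adhesion genes were among those that fell: paxillin (PXN) from 95.6 ± 0.554 to 27.9 ± 2.68 CPM (-1.76), PARVB from 68.0 ± 3.98 to 24.2 ± 2.69 CPM (-1.50) and vinculin (VCL) from 186 ± 11.7 to 74.6 ± 3.42 CPM (-1.31).

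Other chemokine and homing receptors were listed for 26 of 31 genes, and 13 were tested. Of these, 8 rose, 3 fell and 2 did not pass (median log2 fold change 0.68). S1PR4, a lymphoid sphingosine 1-phosphate receptor, was counted 1, 0 and 0 times in SEM::mock and 607, 343 and 384 in SEM::EGR3. CCR7, the lymph node homing receptor, was counted 2, 1 and 3 times against 38, 17 and 24. Thus, CXCR4 was not the only receptor of this kind at or near the detection limit in SEM::mock. PECAM1, an adhesion molecule of endothelium and leukocytes, rose from 0.412 ± 0.246 to 8.72 ± 0.714 CPM (SD, n = 3 per group, log2 fold change 4.36). It was counted 1, 4 and 2 times in SEM::mock, and its ratio had a 95% counting interval of 10.2 to 53.4. ALCAM rose from 1.35 ± 0.441 to 8.70 ± 0.829 CPM (2.68). The receptors that fell were CD24, which also stands in the B lineage list, from 143 ± 11.2 to 23.4 ± 0.526 CPM (-2.61), the hyaluronan receptor CD44, from 98.2 ± 3.20 to 42.1 ± 3.68 CPM (-1.23), and F11R, from 88.4 ± 3.46 to 57.3 ± 4.77 CPM (-0.62).

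Downstream of CXCR4, 18 of 21 genes for signalling and desensitisation were tested, with 6 higher, 8 lower and 4 that did not pass (median log2 fold change -0.11). CD74, which forms a receptor complex with CXCR4 for the cytokine MIF, rose from 25.1 ± 3.00 to 85.0 ± 4.95 CPM (SD, n = 3 per group; log2 fold change 1.76), and GNAI2, the inhibitory G protein subunit by which chemokine receptors signal, from 103 ± 8.401 to 175 ± 11.8 CPM (0.77). Regulators of G protein signalling, which end the signal, moved in both directions: RGS2 rose by 1.29, RGS10 fell by 0.76 and RGS16 fell by 0.64 on the log2 scale.

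Of 20 genes for ligands and counter-receptors, 13 were tested, with 3 higher, 7 lower and 3 that did not pass (median log2 fold change -0.34). The endothelial counter-receptors were barely counted in either group: VCAM1 had 0 counts in SEM::mock and 1, 1 and 0 in SEM::EGR3, SELP had 0 against 4, 2 and 2, and SELE had 1 count in 1 SEM::mock library and 0 in the other 5 libraries. ICAM1, a ligand of LFA-1, fell from 33.7 ± 2.63 to 7.34 ± 0.266 CPM (SD, n = 3 per group, log2 fold change -2.20). ICAM4, an erythroid member of the same family, fell from 36.0 ± 3.48 to 8.58 ± 1.98 CPM (-2.12). ITGAL and ITGB2 thus rose while ICAM1 fell in the same libraries. LAMC1, a laminin chain, rose from 9.76 ± 1.31 to 29.4 ± 0.814 CPM (1.59), and CALR, which encodes calreticulin, from 757 ± 46.7 to 1084 ± 42.2 CPM (0.52).

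**Figure D5:**
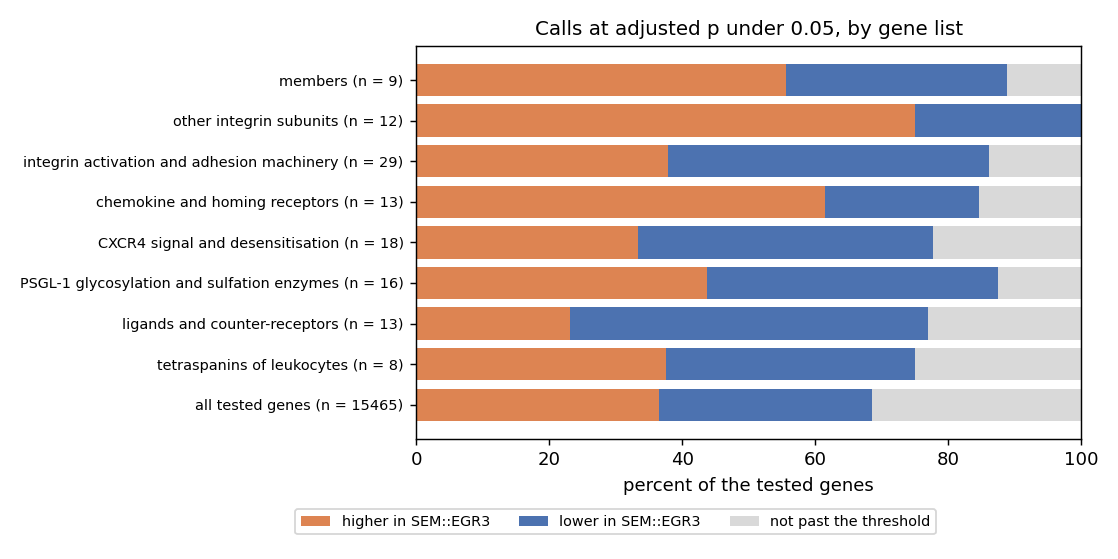
Tested genes that were higher, lower or not called in SEM::EGR3, for each list of genes and for the 9 genes. The 9 genes hold 5 higher and 3 lower calls, and the integrin activation and adhesion machinery holds 11 higher and 14 lower calls.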

How the data were processed

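MACE-Seq libraries of 3 SEM::mock and 3 SEM::EGR3 samples were analysed. Columns headed ERG3 were assigned to the EGR3 line by the sample titles. The authors deposited raw counts per gene. They also deposited CPM values, which are counts divided by a library total, of which 73.6% to 75.8% lies in the listed genes, and size-factor normalized counts, a signal scale. Only the raw counts entered tests. Columns of the authors' own DESeq2 comparison (log2 fold changes with p-values, raw and adjusted) were not used. Every column of per-sample values was assigned to a sample. The submitters' processing notes name bcl2fastq, Bowtie2, HTSeq and GRCh38; the annotation, strand setting and treatment of multi-mapping reads were not given in the sources used here.

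Counts were compared in R 4.3.3 with edgeR 4.0.16 (filterByExpr, TMM, glmQLFit and glmQLFTest, all 6 libraries, no further term) and adjusted by Benjamini-Hochberg over 15465 genes. CPM in the text are counts per 1000000 of the TMM-scaled total of the listed genes. Single-gene ratios compare the summed counts of each group per summed TMM-scaled total, with exact 95% counting intervals. The detection limit was 3 counts per library. Subunit ratios had 0.5 added to each count, since some counts were 0. Replicates of a group differed by more than sampling noise (chi-square per degree of freedom 1.71 to 3.12).

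Alternatives were DESeq2 1.42.0, other normalizations and filters, a log2 fold change minimum, unadjusted p-values, a replicate block and leaving out each library. Gene positions follow GENCODE 29, in which 34339 of 35410 identifiers (97.0%) were found.

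The 9 genes and all lists were chosen with earlier results of these data known. From each list, the 3 largest and 3 smallest log2 fold changes were eligible to be named among called, non-overlapping genes whose higher group averaged 50 counts or more. CCR7, FERMT3, TLN1, ITGB7, ITGAX, ACKR3, CXCL12, VCAM1, SELP and SELE were named for their roles after their values were seen.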

Additional observations from a re-analysis of the deposited data

How the results depend on the processing

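CXCR4, SELPLG, ITGA4, ITGA5, ITGA6, ITGAL, ITGB2 and CD47 kept their direction and their side of the threshold under DESeq2, the other normalizations and filters, the replicate block and the removal of each library, wherever they were tested. A required log2 fold change of 1 removed the calls of ITGA5 and CD47. ITGB1 did not pass in any of these, and its log2 fold change turned negative with DESeq2 (-9.91e-05) and with the replicate block (-0.00425) and ran from -0.061 to 0.044 when 1 library was left out. The replicate block gave 5388 genes higher and 4693 lower, with 5 and 3 of the 9 genes, and changed no call among the 9. The groups share only the replicate numbers: deviations of same-numbered libraries correlated at -0.12 to -0.038, and no library correlated best with its own number. With at least 10 counts in every library, CXCR4, ITGA6, ITGAL and ITGB2 were no longer tested. The number of genes higher went from 5 to 1 (ITGA4) among the 9 and from 9 to 6 among the other integrin subunits. It went from 11 to 7 in the activation machinery and from 8 to 2 among the chemokine and homing receptors. Among the PSGL-1 enzymes it went from 7 to 4. These numbers fell since fewer genes were tested. When a log2 fold change of 1 or more in size was required, 2581 of all genes were higher (5640 without it) and 1315 lower (4954 without it), and of the 9 genes 1, SELPLG, was lower (3 without it). When 1 library was left out, 5312 to 5570 genes were higher and 4626 to 4940 lower, with 5 and 3 of the 9 genes each time. Depth limits CXCR4, ITGA6 and ITGAL in SEM::mock, where no fold can be given without its counting interval or bound.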

Other observations

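The tetraspanins, membrane proteins that organise integrins, were split: of 8 genes, 3 rose, 3 fell and 2 did not pass. CD81, a broadly expressed member of the family, rose from 302 ± 10.5 to 666 ± 26.2 CPM (SD, n = 3 per group; log2 fold change 1.14, edgeR's quasi-likelihood test), with smaller increases of CD151 (0.28) and TSPAN32 (0.40). CD82 fell by 0.84, CD63 by 0.72 and CD53 by 0.23 on the log2 scale.

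A high correlation with CXCR4 over the libraries was common, whereas a fitted change of its size was not. Of all tested genes, 0.129% had a larger absolute log2 fold change, a fitted value that depends on the prior count. The genes most like CXCR4 by the correlation of log2 CPM over the 6 libraries were PGM1, RASD2 and AK3, each with 0 counts in all 3 SEM::mock libraries. Of 11502 genes compared, 2326 (20.2%) had a Pearson correlation with CXCR4 above 0.95. Since the libraries fall into 2 groups, this likeness describes the gap between the groups.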
